A study of Mus musculus with 8 samples.

Results

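Genes of the photoreceptor ribbon synapse were followed in the developing mouse retina. Members were the 10 genes Cacna1f, Cacna2d4, Cabp4, Ctbp2, Bsn, Pclo, Cplx3, Cplx4, Stx3 and Slc17a7, found by their gene name in the expression tables, out of 21827 genes in all. RNA was sequenced from 8 samples of slc:ICR mice: whole retina at embryonic day 15 (E15) and E18, and retinal cells sorted at postnatal day 2 (P2), P5 and P8 into a Cd73 positive fraction (Cd73PC) and a Cd73 negative fraction (Cd73NC). Cd73, a surface enzyme encoded by Nt5e, marks rods and their precursors, so the sort enriched these in Cd73PC. Cone marker RNA was found in both fractions, as given below. Each condition was 1 library, made from pooled retinas for the sorted fractions, both fractions of a stage came from the same retinas, and the labels name no targeted allele and no treatment. No difference can therefore be set against a replicate error, no test was run, and a gene is called higher or lower below where it passed 1.5-fold on FPKM + 1. FPKM is a level per transcript length and per mapped fragment, as Cufflinks estimated it, and the range given after some values is its lower and upper confidence bound within that library.

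A rod or cone releases glutamate from its terminal in the dark through a ribbon, a plate of protein that tethers synaptic vesicles next to the calcium channels. Graded changes in membrane voltage open these L-type channels, vesicles fuse at a rate that follows the calcium entry, and light lowers that rate. The terminal forms in the outer plexiform layer after birth, opposite the dendrites of bipolar and horizontal cells, and bipolar cells carry ribbons of their own. Of the 10 genes, 3 belong to the calcium channel (Cacna1f, the pore of Cav1.4, Cacna2d4, its alpha2delta subunit, and Cabp4, a calcium-binding protein that sets how the channel opens), 3 to the ribbon and its anchor (Ctbp2, Bsn and Pclo), 3 to vesicle fusion (Cplx3, Cplx4 and Stx3), and Slc17a7, the vesicular glutamate transporter VGLUT1, fills the vesicles.

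Promoter sequences of these genes were read from RefSeq (GRCm38.p6), which held 8 start sites for 7 of them, and each window of 250 bases before and 50 bases after the start was found exactly once in NCBIM37, the build of the expression tables (mm9). No window was listed for Cacna2d4, Cabp4 or Cplx4. The 250 bases before the start are shown for Slc17a7 (chr7:52419041-52419290, plus strand), the member with the highest level, and for Cplx3 (chr9:57454089-57454338, minus strand), the member that was lower in Cd73PC at P8. Stretches of 30 bases are shown for Ctbp2 (chr7:140207034-140207063, minus strand) and Stx3 (chr19:11893846-11893875, minus strand), which hold the letters of the binding motif of the photoreceptor homeodomain factors Crx and Otx2. Capitals mark TAATCC or its reverse complement GGATTA, and TCAGCA, the reverse complement of TGCTGA, which is the core of the element that the rod factor Nrl binds.
Slc17a7: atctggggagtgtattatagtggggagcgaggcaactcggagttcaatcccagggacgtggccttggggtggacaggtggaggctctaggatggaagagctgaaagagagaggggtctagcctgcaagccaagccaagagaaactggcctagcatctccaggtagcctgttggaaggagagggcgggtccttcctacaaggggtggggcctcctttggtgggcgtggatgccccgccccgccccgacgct
Cplx3: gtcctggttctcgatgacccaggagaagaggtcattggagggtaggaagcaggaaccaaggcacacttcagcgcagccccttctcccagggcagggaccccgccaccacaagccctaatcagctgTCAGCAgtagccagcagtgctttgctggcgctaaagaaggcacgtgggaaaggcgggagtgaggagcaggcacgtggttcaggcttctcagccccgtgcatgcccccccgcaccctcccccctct
Ctbp2: taaggtttcagaGGATTAataatttaggtc
Stx3: ccactagcatcaTAATCCccaaattcctcg
TAATCC was present on either strand in 2 of the 8 windows, in Ctbp2 at -121 and in Stx3 at 31 from the start, and in 7.06% of all 32851 windows of the same length. TGCTGA was present on either strand in 1 of the 8, in Cplx3 at -125, and in 19.5% of all windows. The Slc17a7 window held neither. A match of 6 letters is a description of the window and says nothing about binding.

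The depth of the libraries could only be estimated, relative to E18. In weakly expressed genes the FPKM moved in steps, which gave depths between 0.965 and 1.62 times that of E18. This rests on a minority of the weak rows: outside E18, 169 to 267 rows per library shared the common ratio, of 1627 to 1987 compared. The absolute depth is unknown, so no counting interval or detection floor was given. Rows that Cufflinks marked as failed numbered 4 to 10 per library and held no member. Of all genes, 13411 had an FPKM of at least 1 in at least 1 library, the 10 members among them, and these formed the background for each count. Of the 80 member values, 68 lay within their own bounds and 12 lay above the upper bound, by at most 5.06%. Nt5e, the gene sorted on, had an FPKM of 97.3, 131 and 124 in the Cd73PC libraries of P2, P5 and P8, against 2.43, 31.4 and 9.38 in Cd73NC. The 6 rod markers (Nrl, Nr2e3, Gnat1, Pde6b, Sag and Cnga1) were higher in Cd73PC at each stage, and their Cd73NC level ranged from 0.0556% to 4.74% of the Cd73PC level at P2, from 5.55% to 21.1% at P5 and from 5.13% to 7.87% at P8.

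At P2, 8 of the 10 genes were higher in Cd73PC and 0 were lower, against 13.7% higher and 23.3% lower among all genes. The member median of the log2(FPKM + 1) difference, Cd73PC minus Cd73NC, was 1.70, and that of all genes was -0.13. At P5, 6 were higher and 0 lower (11.3% and 25.1% of all genes), with a median of 1.11 against -0.17. At P8, 6 were higher and 1, Cplx3, was lower (12.1% and 29.6% of all genes), with a median of 0.76 against -0.22. In bulk RNA of sorted cells, fewer cells of a type and less RNA per cell cannot be told apart. Another scaling moved the background: with quantile normalization over the 8 libraries the all-gene medians at P2, P5 and P8 became -0.04, 0.00 and 0.02. At P2, 16.2% of genes were then higher and 19.1% lower, at P5 16.2% and 17.6%, and at P8 19.0% and 20.4%, while 9, 6 and 6 members were higher at the 3 stages. After scaling to the same upper quartile 9, 9 and 6 members were higher, against 14.8%, 13.6% and 15.4% of all genes, of which 21.2%, 22.4% and 25.5% were lower.

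**Figure D1:**
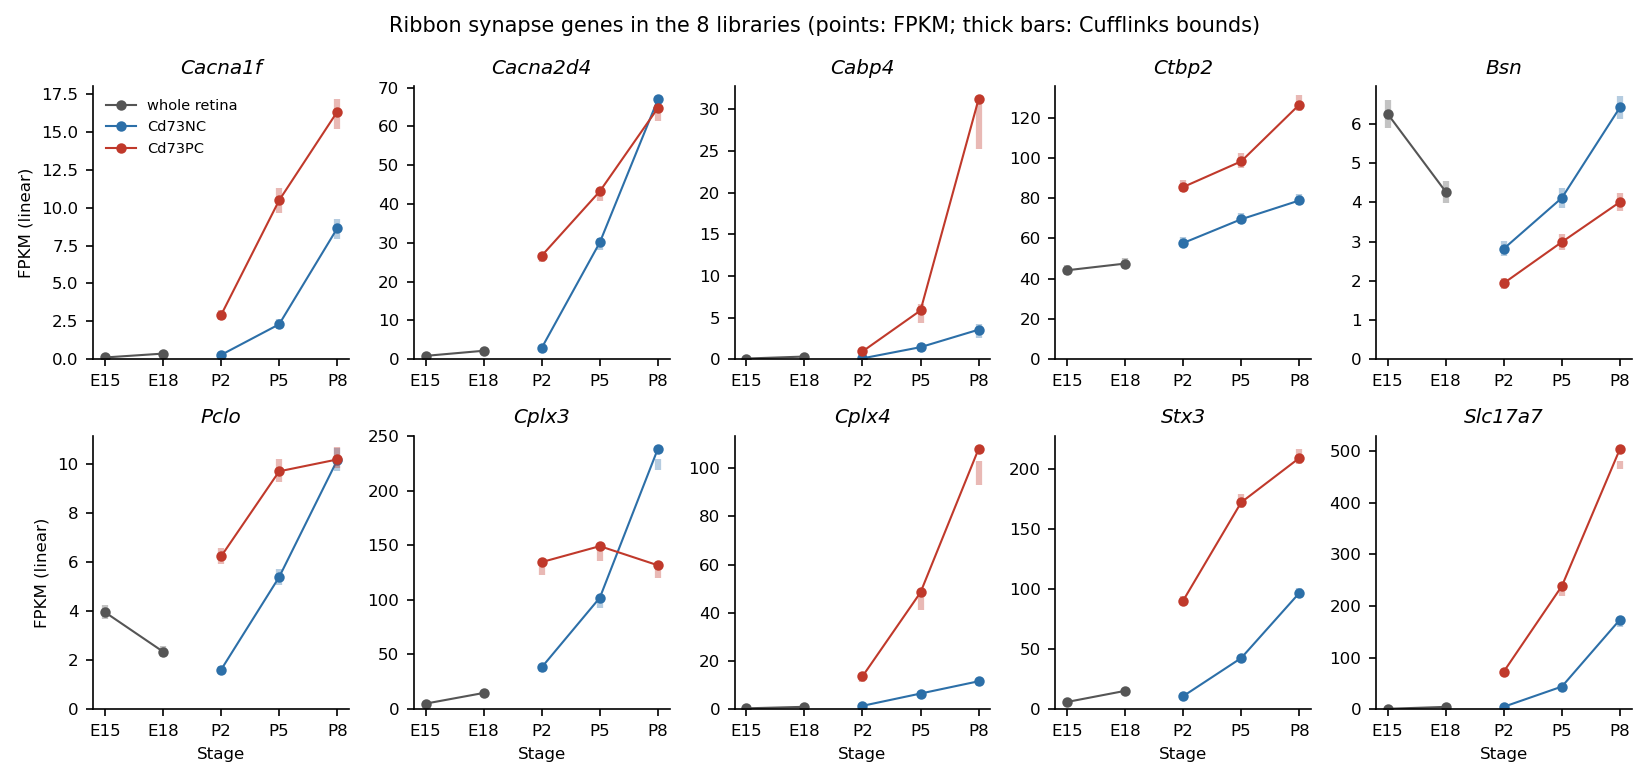
FPKM (linear axis from 0, a separate scale for each gene) of the 10 ribbon synapse genes against stage, with whole retina in grey, Cd73NC in blue and Cd73PC in red; points are single libraries and thick bars the Cufflinks bounds. Slc17a7 reached 505 in Cd73PC at P8, the Cplx3 lines crossed between P5 and P8, and the Bsn line of Cd73NC lay above that of Cd73PC at each stage (the order at P5 reversed under quantile normalization).

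The channel genes were low before birth and were higher in Cd73PC than in Cd73NC at P2. Cacna1f (X:7184229-7212322) had an FPKM of 0.117 at E15 and 0.372 at E18, 0.285 in Cd73NC against 2.91 in Cd73PC at P2, 2.31 against 10.5 at P5, and 8.64 (7.95 to 9.25) against 16.3 (15.2 to 17.2) at P8. Its bounds did not overlap between the fractions at any stage, and on FPKM + 1 Cd73PC was 3.04-fold, 3.47-fold and 1.80-fold higher at P2, P5 and P8. Among the 4 pore-forming subunits of L-type channels, Cacna1f held 8.77% of their summed FPKM at E18, 10.96% in Cd73NC at P2 and 83.8% in Cd73PC at P2. Cacna1d, the pore of Cav1.3, held 70.1% at E18 and 72.5% in Cd73NC at P2, and only 2.38% in Cd73PC at P5, where Cacna1f held 96.3%. The share of Cacna1f was thus already high in Cd73PC when its level was 17.8% of that at P8. Shares within a library do not change when all its values are multiplied by a constant, as in upper quartile scaling. They can change under quantile normalization, for which they were not recomputed.

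Cacna2d4 (6:119186544-119302425) had an FPKM of 0.869 at E15 and 2.19 at E18, 2.93 in Cd73NC against 26.7 in Cd73PC at P2, 30.1 against 43.3 at P5, and 67.0 (63.5 to 67.1) against 64.8 (61.3 to 65.8) at P8. The fractions differed 7.05-fold at P2 and 1.42-fold at P5, and at P8 their bounds overlapped. The P8 difference was -0.05 on the log2 scale, and it was 0.12 after scaling to the same upper quartile and 0.04 after quantile normalization, so its sign depended on the scaling. In its family of 4 alpha2delta genes, Cacna2d4 held 11.9% at E18, 75.6% in Cd73PC at P2 and 94.0% at P8. In Cd73NC its share went from 19.7% at P2 to 75.9% at P8, so it was the leading alpha2delta gene of both fractions by that stage.

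Cabp4 (19:4135423-4139609) had the lowest FPKM of the channel genes in each library up to P5. Its FPKM was 0.0836 at E15 (with a lower bound of 0) and 0.323 at E18, 0.106 in Cd73NC against 0.932 in Cd73PC at P2, 1.45 against 5.86 at P5, and 3.55 against 31.2 at P8. Cd73PC was 1.75-fold higher at P2, 2.80-fold at P5 and 7.09-fold at P8, a scale on which its low P2 values are compressed. On FPKM alone its level in Cd73NC was 11.4%, 24.8% and 11.4% of that in Cd73PC. The P2 percentage rests on a Cd73NC value with bounds of 0 to 0.219, so it cannot show whether the fractions of Cabp4 moved apart by P8. Those of Cacna1f (9.78% at P2 and 52.9% at P8) and Cacna2d4 (10.98% and 103%) had come closer. The neighbouring family members had another distribution. Cabp5, a calcium-binding protein of bipolar cells, had an FPKM of 183 in Cd73NC against 22.9 in Cd73PC at P8, and held 62.4% of the 4 CaBP genes in Cd73NC, where Cabp4 held 1.21%. In Cd73PC at P8 Cabp4 held 39.0%, the largest share of the 4. The beta subunit Cacnb2, which is not a member but completes the channel, had an FPKM of 2.49 at P2, 13.7 at P5 and 31.0 at P8 in Cd73PC against 0.189, 1.67 and 6.91 in Cd73NC. Its share of the 4 beta subunits in Cd73PC was 10.9%, 42.9% and 71.4% at these stages, with Cacnb3 holding 78.6%, 51.0% and 24.6%.

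**Figure D2:**
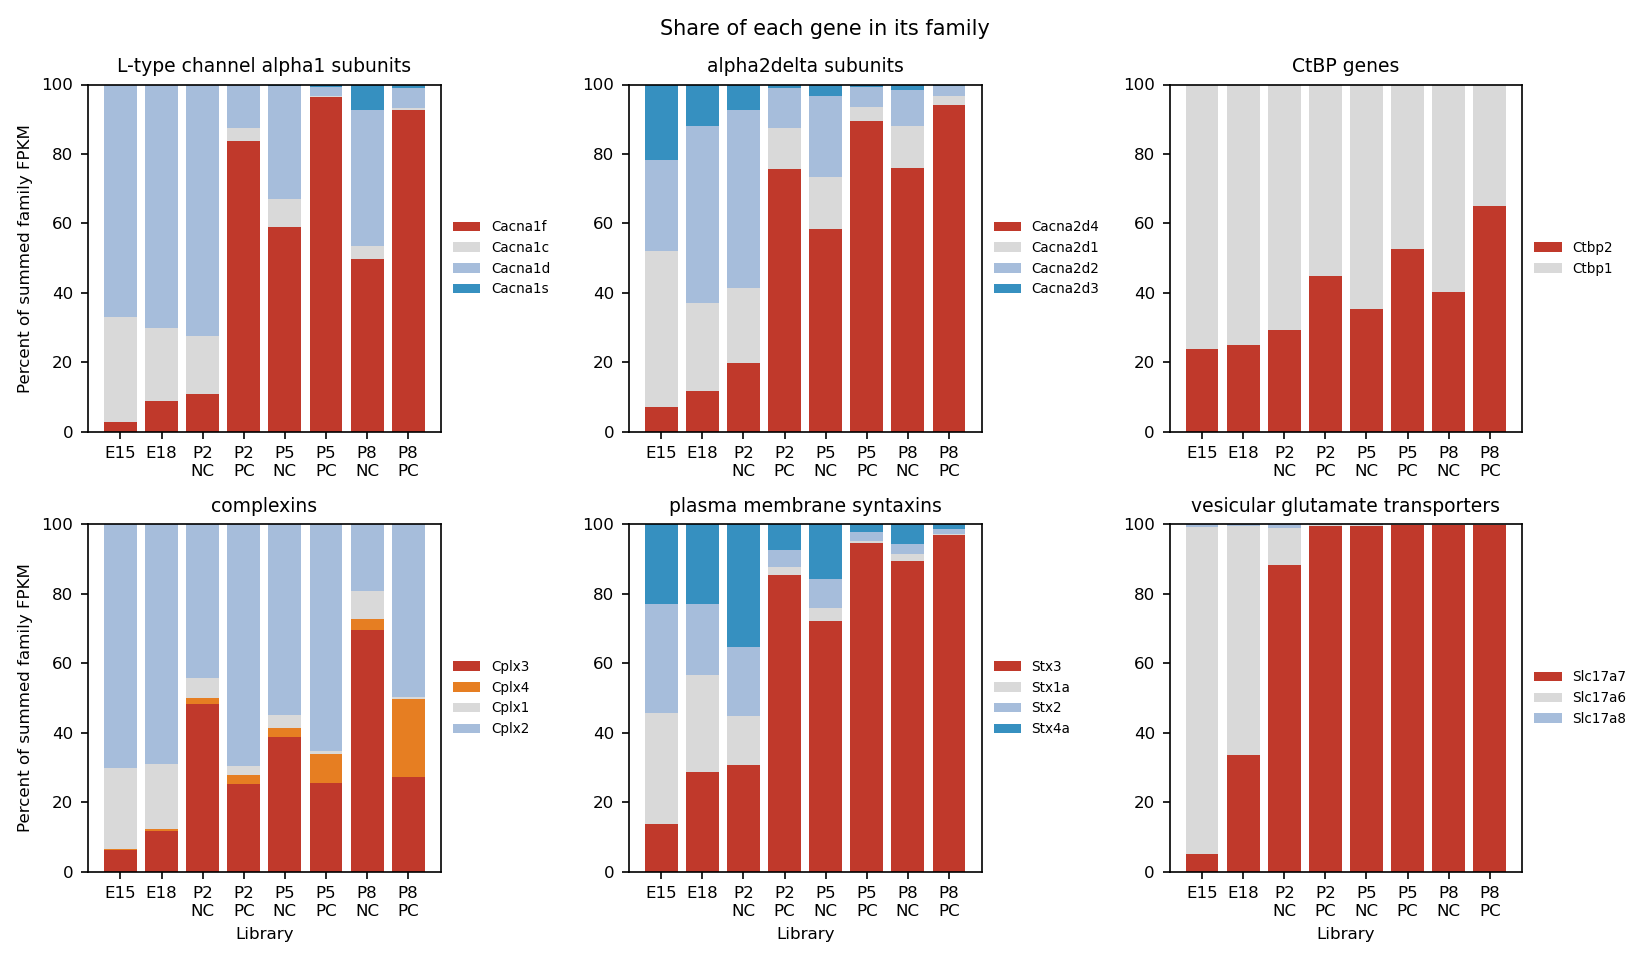
Stacked bars give the share of each gene in the summed FPKM of its family (percent, from 0) in the 8 libraries, with the ribbon synapse genes in red (Cplx4 in orange) and their paralogs in grey and blue. Cacna1f, Cacna2d4, Stx3 and Slc17a7 held most of the summed FPKM of the genes shown in Cd73PC from P2 on, while Cplx3 held 69.5% of the complexins in Cd73NC at P8 and 27.3% in Cd73PC.

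Of the ribbon and anchor genes, Ctbp2 and Bsn differed by less than 1.5-fold between the fractions at P2 and P5, and Pclo was higher in Cd73PC at both. Ctbp2 (7:140178694-140315166) encodes both the nuclear corepressor CtBP2 and RIBEYE, the main protein of the ribbon, which starts from a promoter of its own inside the gene. Its FPKM was 44.2 at E15 and 47.5 at E18, 57.7 in Cd73NC against 85.5 in Cd73PC at P2, 69.5 against 98.3 at P5, and 78.9 (76.6 to 82.1) against 126 (123 to 131) at P8. It was thus detected at a high level in each of the 8 libraries, and the Cd73PC value was 1.47, 1.41 and 1.60 times that of Cd73NC on FPKM + 1, of which only the last passed 1.5-fold. Its only close relative, Ctbp1, went the other way, with 140 at E15 and 67.7 in Cd73PC at P8, and the Ctbp2 share of the pair was 24.0% at E15, 45.0% in Cd73PC at P2 and 65.1% at P8. The deposited tables give 1 value for the gene although 2 start sites are listed. Among the 18 coding transcripts in the gencode annotation of NCBIM37, the one with the longest coding sequence, 2964 bases, starts at 140206931, in the RefSeq window that holds the GGATTA shown above. A transcript with 1260 coding bases starts in the same window, at 140207173, and others with 1335 and 1260 start at 140315050 and 140314849. RIBEYE and CtBP2 mRNA cannot be told apart in these values.

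Bsn and Pclo encode bassoon and piccolo, very large scaffold proteins, and bassoon anchors the ribbon to the membrane. Bsn (9:107998353-108092714) had an FPKM of 6.26 at E15 and 4.27 at E18, 2.82 in Cd73NC against 1.94 in Cd73PC at P2, 4.12 against 2.99 at P5, and 6.43 (6.12 to 6.72) against 4.01 (3.77 to 4.25) at P8. It was the only member with a higher value in Cd73NC at all 3 stages, by 1.30-fold, 1.28-fold and 1.48-fold on FPKM + 1, of which none passed 1.5-fold, while on FPKM alone the P8 value of Cd73NC, 160% of the Cd73PC value, passed. Its bounds did not overlap between the fractions, but the P5 difference of -0.36 on the log2 scale became 0.04 after quantile normalization. Pclo (5:14514918-14863459) had an FPKM of 3.96 at E15 and 2.35 at E18, 1.61 in Cd73NC against 6.24 in Cd73PC at P2, 5.40 against 9.72 at P5, and 10.18 against 10.20 at P8. Cd73PC was 2.78-fold higher at P2 and 1.68-fold at P5, and the fractions were level at P8 with overlapping bounds. Of the summed FPKM of both scaffolds, Pclo made up 36.3% in Cd73NC and 76.3% in Cd73PC at P2, and 61.3% and 71.8% at P8.

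Among the fusion genes, Cplx4 differed most between the fractions at P5 and P8, and Cplx3 changed sides. Complexins clamp and promote the SNARE complex, and Cplx3 and Cplx4 are the forms of retinal ribbon synapses. Cplx4 (18:66115376-66129832) had an FPKM of 0.309 at E15 and 0.937 at E18, 1.35 in Cd73NC against 13.6 in Cd73PC at P2, 6.45 against 48.4 at P5, and 11.6 against 108 at P8. Cd73PC was 6.21-fold, 6.64-fold and 8.69-fold higher, and the Cd73NC level stayed between 9.92% and 13.3% of that in Cd73PC. At P8 this was 10.7%, beside 5.13% to 7.87% for the rod markers.

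Cplx3 (9:57447799-57454088) had an FPKM of 4.98 at E15 and 14.8 at E18, 38.3 in Cd73NC against 134.5 in Cd73PC at P2, 102 against 149 at P5, and 238 (218 to 229) against 131.6 (120 to 129) at P8. It was 3.45-fold higher in Cd73PC at P2, did not pass 1.5-fold at P5 (1.46-fold), and was 1.81-fold lower at P8. The level in Cd73PC was 102% of the P8 level at P2 and 113% at P5, so it was the only member already at its P8 level in Cd73PC at P2. The level in Cd73NC was 6.10-fold higher at P8 than at P2 on FPKM + 1. Cplx2, a complexin of conventional synapses, led the family in Cd73PC at each stage, with an FPKM of 370.3, 382 and 239 and a share of 69.6%, 65.4% and 49.7%. At P8 the complexins of Cd73NC were led by Cplx3 (69.5%), and Cplx4 made up 22.4% in Cd73PC and 3.37% in Cd73NC.

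Stx3 encodes syntaxin 3, the plasma membrane SNARE of photoreceptor and bipolar ribbon synapses. Stx3 (19:11849608-11893893) had an FPKM of 5.90 at E15 and 15.2 at E18, 10.7 in Cd73NC against 90.3 in Cd73PC at P2, 42.5 against 172 at P5, and 96.8 against 209 at P8. Cd73PC was 7.78-fold, 3.98-fold and 2.15-fold higher. Of the summed FPKM of Stx1a, Stx2, Stx3 and Stx4a, Stx3 held 13.7% at E15, 30.8% in Cd73NC and 85.5% in Cd73PC at P2, and 89.5% and 96.8% at P8. Stx1a had an FPKM of 13.7 at E15 and of 0.754 in Cd73PC at P8.

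Slc17a7 (7:52419291-52431509) had the highest level of the members in Cd73PC at P5 and P8. Its FPKM was 0.526 at E15 and 4.26 at E18, 4.49 in Cd73NC against 72.7 in Cd73PC at P2, 43.6 against 239 at P5, and 174 against 505 at P8. In Cd73PC at P8 it ranked 77 among the 13411 genes. Cd73PC was 13.4-fold higher at P2, the largest difference of a member at any stage, then 5.37-fold and 2.90-fold. Slc17a6, which encodes VGLUT2, had an FPKM of 9.69 at E15, 8.30 at E18, 0.546 in Cd73NC at P2 and 0.308 in Cd73PC at P2. Slc17a7 accordingly held 5.11% of the 3 transporters at E15, 33.7% at E18, 88.2% in Cd73NC at P2 and 99.5% in Cd73PC at P2. From P5 on it held at least 99.4% in both fractions. Whole retina and sorted fractions are different samples, and the 6 ganglion cell markers summed to an FPKM of 945 at E15, 555 at E18, 19.1 in Cd73NC and 6.82 in Cd73PC at P2, which moved with Slc17a6, and their part in the shares was not tested.

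**Figure D3:**
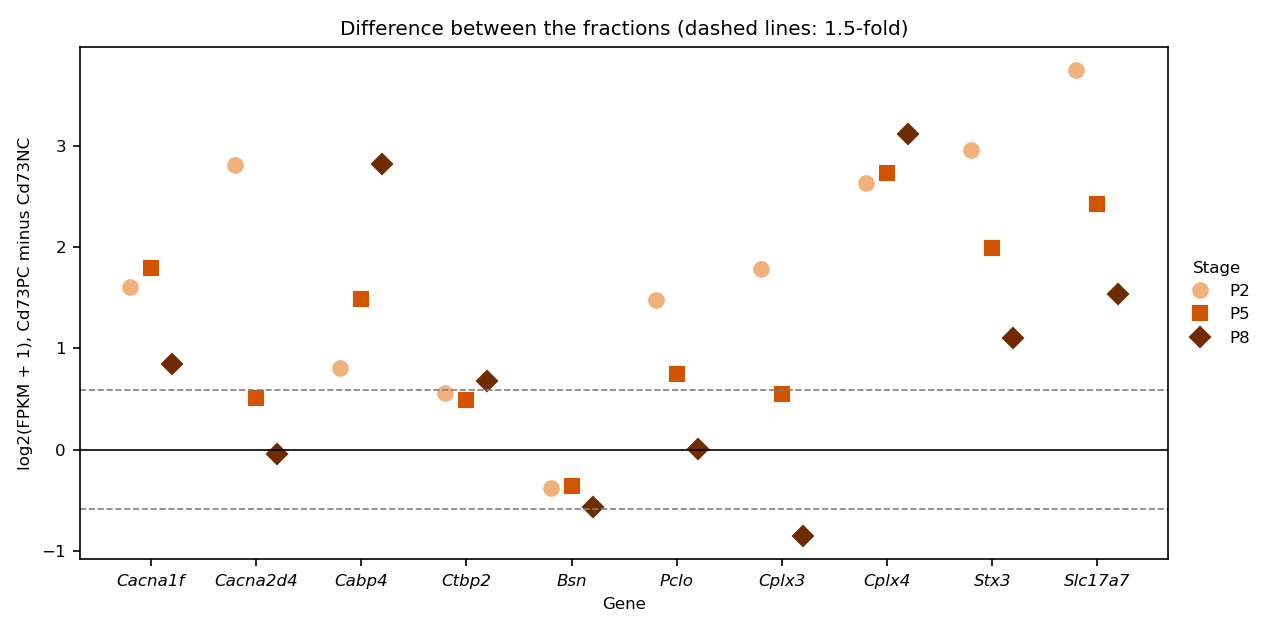
The log2(FPKM + 1) difference, Cd73PC minus Cd73NC, for each of the 10 genes at P2 (circles), P5 (squares) and P8 (diamonds), each from 1 library per fraction, with dashed lines at 1.5-fold and a solid line at 0. The values of Slc17a7, Stx3, Cacna2d4, Pclo and Cplx3 became smaller from P2 to P8, and those of Cabp4 and Cplx4 became larger on this scale. On FPKM alone Cplx4 was not wider apart, and the P2 value of Cabp4 in Cd73NC (bounds 0 to 0.219) was too low to compare. Bsn lay below 0 at the 3 stages (above 0 at P5 under quantile normalization).

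In Cd73PC the genes reached their P8 level at different times. The level at P2 was 2.99% of that at P8 for Cabp4, 12.5% for Cplx4, 14.4% for Slc17a7 and 17.8% for Cacna1f. It was 41.2% for Cacna2d4, 43.2% for Stx3, 48.4% for Bsn, 61.2% for Pclo, 67.6% for Ctbp2 and 102% for Cplx3. At P5 the range was 18.7% (Cabp4) to 113% (Cplx3). The member median was 42.2% at P2 and 70.7% at P5. It was 17.9% and 57.8% for 20 genes listed as rod phototransduction, which include the outer segment disc genes Rom1 and Prph2. The range of the 20 at P2 was 1.18% to 65.3%. Both groups thus spread widely, and Cabp4, Cplx4 and Slc17a7 lay below the median of the 20 at P2. Cacna1f, at 17.8% against 17.9%, lay next to that median, and 6 members lay more than 2-fold above it. The median was not recomputed without Rom1 and Prph2.

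**Figure D4:**
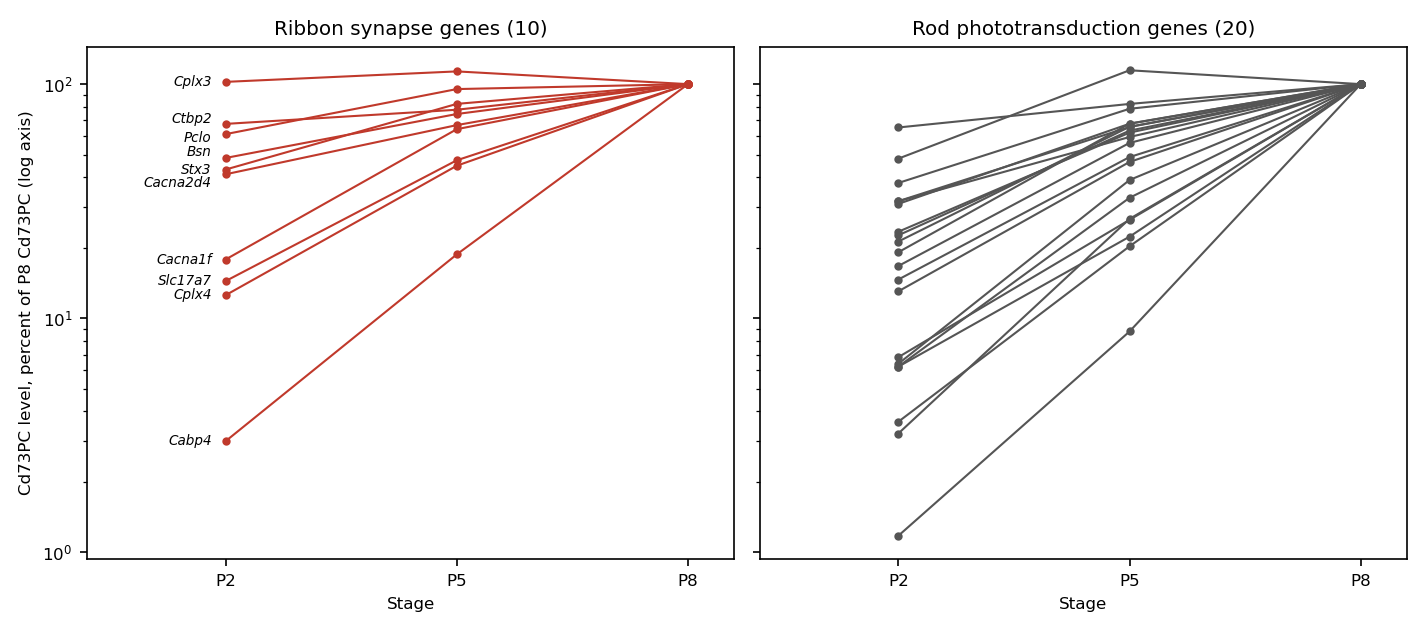
The Cd73PC level at P2 and P5 as a percent of that at P8 (log axis) for the 10 ribbon synapse genes (left) and 20 genes listed as rod phototransduction (right), with 1 line per gene. The 20 include the outer segment disc genes Rom1 and Prph2. At P2 the ribbon synapse genes lay between 2.99% and 102% and the phototransduction genes between 1.18% and 65.3%.

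Between stages, 8 of the 10 genes were higher at P8 than at P2 in Cd73PC (10.3% of all genes), and 9 in Cd73NC (20.9%), with medians of 1.23 and 2.51 on the log2 scale. Under quantile normalization 15.4% of all genes were higher and 15.9% lower in Cd73PC, in place of 10.3% and 23.7%. In Cd73PC the ratio on FPKM + 1 was largest for Cabp4 (16.7-fold), followed by Cplx4 (7.49-fold), Slc17a7 (6.86-fold) and Cacna1f (4.43-fold), and Ctbp2 (1.47-fold) and Cplx3 did not pass 1.5-fold. In Cd73NC it was largest for Slc17a7 (31.8-fold) and Cacna2d4 (17.3-fold), followed by Stx3 (8.33-fold) and Cacna1f (7.50-fold), and Ctbp2 (1.36-fold) did not pass. On FPKM alone, the order was Slc17a7 (38.7-fold), Cabp4 (33.4-fold), Cacna1f (30.3-fold) and Cacna2d4 (22.9-fold). The Cabp4 ratio starts from 0.106 at P2, with bounds of 0 to 0.219, so its place in that order is uncertain. From P2 to P5, 6 genes were higher in Cd73PC (5.35% of all genes) and 8 in Cd73NC (12.7%). From P5 to P8, 4 were higher in Cd73PC (5.34%) and 8 in Cd73NC (13.3%). No member was lower at a later stage in either fraction, while 13.9%, 7.69% and 23.7% of all genes were lower in Cd73PC from P2 to P5, P5 to P8 and P2 to P8, and 15.3%, 12.6% and 23% in Cd73NC. The summed FPKM of the 6 rod markers in Cd73NC also went up (P2 49.97, P5 743, P8 544), and Nt5e was highest there at P5, and the part of rod RNA in the Cd73NC levels was not tested. Adjacent comparisons share the P5 libraries, and each comparison between fractions shares its libraries with those between stages.

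Between E15 and E18 in whole retina, 4 genes were higher, Cacna2d4, Cplx3, Stx3 and Slc17a7 (7.37% of all genes), and 0 were lower (3.31%). The member median was 0.43 and that of all genes 0.04. Bsn and Pclo had lower values at E18 without passing 1.5-fold. The count of 4 became 7 with a pseudocount of 0.1 or 0, which added Cacna1f, Cabp4 and Cplx4, each with an FPKM under 1 at both stages. With 0.1, 11.6% of all genes were higher and 5.37% lower, and Pclo, whose FPKM at E18 was 0.593 times that at E15, was then lower.

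At P8 each member lay between the rod and the bipolar markers in its Cd73NC level as a percent of that in Cd73PC. That interval, from 7.87% (Nr2e3) to 349% (Prkca), is wide, and the share of all genes within it was not counted. The placement is therefore not shown to be particular to the members. The level in Cd73NC, as a percent of that in Cd73PC, was 10.7% for Cplx4, 11.4% for Cabp4, 34.4% for Slc17a7, 46.3% for Stx3, 52.9% for Cacna1f and 62.4% for Ctbp2. It was 99.7% for Pclo, 103% for Cacna2d4, 160% for Bsn and 181% for Cplx3. The 8 bipolar markers (Grm6, Trpm1, Vsx1, Cabp5, Prkca, Bhlhe23, Gng13 and Pcp2) were all higher in Cd73NC at P8, with a level in Cd73PC of 7.70% to 28.7% of that in Cd73NC. Their FPKM summed to 8.51, 65.7 and 1360.4 in the Cd73NC libraries of P2, P5 and P8, against 61.2, 36.4 and 197 in Cd73PC. At P2 Bhlhe23 was listed at 0 in both fractions and Grm6 in Cd73NC, and no bipolar marker was at 0 at P5 or P8. At P8, therefore, 6 members were higher in Cd73PC, the fraction enriched in rods, Cplx3 was lower there, and Pclo, Cacna2d4 and Bsn did not pass 1.5-fold. The rise of bipolar marker RNA in Cd73NC moved with that of the members there, and its part in their levels was not tested.

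**Figure D5:**
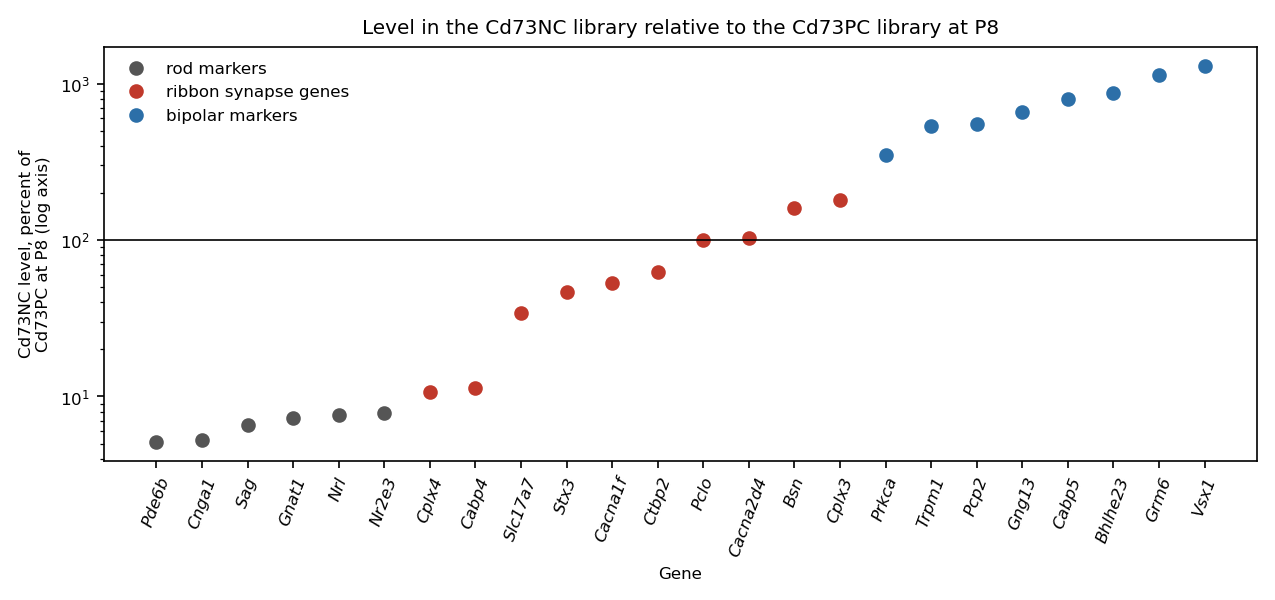
The level in Cd73NC as a percent of that in Cd73PC at P8 (log axis, line at 100%) for 6 rod markers (grey), the 10 ribbon synapse genes (red) and 8 bipolar markers (blue), each point 1 gene in 1 library per fraction. The ribbon synapse genes lay from 10.7% (Cplx4) to 181% (Cplx3), above each rod marker and below each bipolar marker. The share of all genes in that interval was not counted.

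Markers of other cells were set beside these values. The 6 cone markers (Opn1sw, Opn1mw, Arr3, Gnat2, Pde6c and Pde6h), which a Cd73 sort of photoreceptors could hold, summed to 129 in Cd73PC against 57.9 in Cd73NC at P2, 110.0 against 145 at P5, and 147 against 121 at P8, with 1, 0 and 2 higher and 0, 1 and 0 lower in Cd73PC. The 5 Müller glia markers summed to 294 to 360 in Cd73PC and 601 to 1178 in Cd73NC, with 3, 4 and 5 lower in Cd73PC at P2, P5 and P8. The 6 amacrine markers summed to 88.1, 75.3 and 52.0 in Cd73PC and 169.8, 55.4 and 13.9 in Cd73NC. Of these, 5, 4 and 2 were lower in Cd73PC at these stages, and Slc6a9, which encodes the glycine transporter GlyT1, was higher at each, with 47.9, 72.3 and 50.7 against 6.56, 40.7 and 10.4. Of the 4 horizontal cell markers 0, 1 and 1 and of the 6 ganglion cell markers 4, 1 and 1 were lower in Cd73PC, and 0 were higher, at sums of at most 2.97 and 19.1 in the sorted fractions. Among these markers Opn1mw in Cd73NC at P2, Sncg in Cd73NC at P5, Lhx1 in Cd73NC at P8 and Pou4f2 in Cd73PC at P8 were listed at 0. The 6 proliferation markers were lower in Cd73PC at each stage, and in Cd73NC they summed to 582, 125 and 13.7 at P2, P5 and P8, which moved with the rise of 9 members there, and their part in it was not tested.

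The other genes of the synapse were read from lists written by hand. Of 19 paralogs of the members, 18 passed the filter on low values (Slc17a8 did not), and 5 were higher and 5 lower in Cd73PC at P2, 2 against 9 at P5, and 1 against 14 at P8, with a median difference of -0.93 on the log2 scale at P8. Of 23 other active zone and vesicle genes that passed, 12 were higher and 3 lower at P2, 8 against 4 at P5, and 4 against 8 at P8. The largest mean difference over the stages was 2.11 for Snap25, a SNARE protein of the plasma membrane, 2.01 for Cacnb2 and 1.91 for Syp, the vesicle protein synaptophysin. The smallest was -1.07 for Rims1 and -1.57 for Erc1, both active zone scaffolds. Syp had an FPKM of 582, 857 and 956 in Cd73PC and 72.0, 261 and 468 in Cd73NC.

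Of 19 genes of the photoreceptor terminal and its transsynaptic contacts, 14 were higher and 2 lower in Cd73PC at P2, 13 against 3 at P5, and 13 against 3 at P8, with medians of 2.53, 1.64 and 1.71. Kcnv2, a modulatory potassium channel subunit, had the largest mean difference (3.59), with an FPKM of 36.1, 94.1 and 188 in Cd73PC. Ano2, a calcium-activated chloride channel of the terminal, followed (3.09), and then Mpp4 (3.08), a scaffold that holds it there. Nrxn3 (-0.81) and Nrxn2 (-1.81), which encode neurexins, had the smallest. Among the 20 genes listed as rod phototransduction, Rom1 and Prph2 included, 18, 19 and 19 were higher and 0 lower, with medians of 3.19, 2.92 and 3.64. The members' medians of 1.70, 1.11 and 0.76 were thus below those of both lists at each stage. No test of that difference was run.

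On the other side of the synapse, 4 of 10 genes listed as postsynaptic in ON bipolar cells were higher and 2 lower in Cd73PC at P2. The counts were 2 against 3 at P5, and 2 against 8 at P8, with a median of -2.70 at P8. Grm6, the glutamate receptor mGluR6 that senses photoreceptor release, was listed at 0 in Cd73NC and 0.0198 in Cd73PC at P2, and had 6.58 and 0.761 at P5 and 162 and 14.3 at P8. Gpr179, which anchors the signalling complex of that receptor, had 1.35 in Cd73NC and 0.551 in Cd73PC at P2 and 77.4 and 9.24 at P8. Grm6 thus appeared in Cd73NC between P2 and P8, when Slc17a7 in Cd73PC went from 72.7 to 505. The 3 genes with the largest mean difference were Gnb5 (1.26), Lrit3 (0.76) and Gng13 (0.58). The 2 higher in Cd73PC at P8 were Gnb5 (189 against 123) and Lrit3 (18.4 against 4.80). Their place in the list does not make this RNA that of bipolar cells, and its cell source was not tested. Gng13 had 23.3 in Cd73PC against 0.995 in Cd73NC at P2, and 22.2 against 146 at P8.

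The profiles of log2(FPKM + 1) over the 8 libraries were positively correlated with each other for 9 members. Their 36 pairs had a Pearson r of 0.63 to 0.99 (median 0.91), highest for Stx3 with Slc17a7 (0.99). The 9 pairs with Bsn had an r of -0.34 to 0.12. These r are descriptions over 8 libraries that share stages and fractions, and no r of pairs drawn from all genes was computed beside them. Among 8793 genes with an FPKM of at least 10 in at least 1 library, the closest to Cplx4 were Gucy2e (r = 0.997), which encodes a photoreceptor guanylate cyclase, and the photoreceptor retinol dehydrogenases Rdh12 and Rdh8. The closest to Stx3 were Syp, Lrit1 and Rasgrf2, and to Slc17a7 Lrit1, Pura and Zfp784. The closest to Cacna1f were Tcta, Cdipt and Ormdl3, to Cacna2d4 Sept4, Ctsd and Slc1a2, to Cabp4 Socs5, Mbnl1 and A930003A15Rik, and to Ctbp2 Ifngr1, 5430417L22Rik and Creb3. The closest to Pclo were Btbd9, Ipo13 and Lrp11, to Cplx3 Pccb, Cpped1 and Trip4, and to Bsn Nacad, Isl1 and Trim2. Isl1 encodes a transcription factor of ganglion, amacrine and bipolar cells. The number of genes with an r above 0.95 was 253 for Cplx4 and 198 for Stx3 but 10 for Pclo and 6 for Bsn, so many genes shared the profile of Cplx4 and few that of Bsn.

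By level in Cd73PC at P8 the order was Slc17a7 (505), Stx3 (209), Cplx3 (131.6), Ctbp2 (126), Cplx4 (108), Cacna2d4 (64.8), Cabp4 (31.2), Cacna1f (16.3), Pclo (10.2) and Bsn (4.01), in FPKM. The neighbours Cplx3 and Ctbp2 had overlapping bounds, and the bounds of the other neighbours did not overlap.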

How the data were processed

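RNA from 8 mouse retinal samples was sequenced by the submitters as single-end reads of 36 bases from randomly primed cDNA, and no strand marking is described, so reads of overlapping genes on opposite strands cannot be told apart. The submitters' processing notes name CASAVA 1.8.2, bcl2fastq 1.8.4, TopHat2 2.0.8b, Cufflinks 2.1.1 and mm9. The authors deposited, for every library, 23021 rows of FPKM and its confidence bounds (lower, upper), already scaled to transcript length and mapped fragments.

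From these FPKM values, 797 rows of small RNAs were left out, rows of one symbol were summed (234 symbols), and 20 genes with a failed row were left out of counts. Differences were taken on log2(FPKM + 1), a scale on which changes of weak genes are understated, among genes with an FPKM of at least 1 in at least 1 library. Calls were made at 1.5-fold, the study's fold, applied here to FPKM + 1, which makes it stricter for weak genes. With 1 library per condition no test was run, and samples were grouped by the labels. Family shares were computed within a library. Named genes were the 10 members, their paralogs, the 3 highest and 2 lowest genes of each synaptic list by mean difference between fractions, and the 3 nearest profiles per member. The 142 list genes were all found, 2 of them by a RefSeq synonym. The members and lists were chosen with earlier results of these data known, and a few genes of these lists are not reported here. Start coordinates in the tables count from 0, and 1 was added. Alternatives were a pseudocount of 0.1 or 0, no filter, upper quartile scaling, quantile normalization, the largest row per symbol, non-overlapping Cufflinks bounds, and a threshold of 2-fold. The bounds describe the estimate within a library, and in 1428 to 2170 rows per library the FPKM lay outside its own bounds. Promoters came from RefSeq (GRCm38.p6) and transcripts from the gencode annotation of NCBIM37. Analyses used Python 3.11.15, numpy 2.4.6, pandas 2.3.3 and matplotlib 3.10.9, and the scripts were tested on simulated data.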

Additional observations from a re-analysis of the deposited data

Results flagged for a closer look

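The differences of Cacna2d4 and Cplx3 between the fractions had opposite signs at different stages, and only Cplx3 passed 1.5-fold in both directions. The log2(FPKM + 1) difference of Cacna2d4, Cd73PC minus Cd73NC, took the values 2.82 (P2), 0.51 (P5) and -0.048 (P8), and at P8 the bounds overlapped and the value was above 0 after upper quartile scaling and quantile normalization. That of Cplx3 was 1.79, 0.54 and -0.85. Between stages, the values of Cplx3 had opposite signs in the fractions, and those of Cd73PC did not pass 1.5-fold. Its difference from P5 to P8 was -0.18 in Cd73PC and 1.22 in Cd73NC, and from P2 to P8 it was -0.032 in Cd73PC, where the bounds overlapped, and 2.61 in Cd73NC. These differences between stages and fractions were not tested, since each value rests on 1 library per condition.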

How the results depend on the processing

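Of the recomputed counts and medians over the members, 161 stayed within 1.5-fold of the reported value and 13 moved by more. No median past 1.5-fold changed sign, and a count has no sign to change. Among the 161 are those without the filter and with the largest row per symbol, which could not move. All 10 members passed the filter, and each had 1 row. The setting on the bounds could bring a member to 0 but not past it, so it could not change a sign either. With a pseudocount of 0.1 the median difference between fractions at P2 became 2.65, that from P2 to P5 in Cd73NC 2.08 and that from E15 to E18 1.22, and with a pseudocount of 0 they became 3.10, 2.12 and 1.46, while that from P2 to P8 in Cd73NC became 3.14. With either pseudocount 2 members were lower in Cd73PC at P8 (Bsn with Cplx3) and 7 were higher at E18 than at E15, beside 36.3% and 11.6% of all genes with a pseudocount of 0.1, with which Pclo was lower at E18. At a threshold of 2-fold 0 members were lower in Cd73PC at P8, and 5 in place of 8 were higher at P8 than at P5 in Cd73NC. The share of all genes past 2-fold was not computed, so these counts have no background beside them. The single genes that moved were Cacna1f (2.97 and 3.35), Cabp4 (2.32 and 3.13) and Cplx4 (3.24 and 3.33) between fractions at P2, with pseudocounts of 0.1 and 0. The smaller pseudocount itself raises the ratio of genes with an FPKM near or under 1. No replicate could be left out, since each condition had 1 library. No paired analysis was possible because each fraction had 1 library per stage and no test was run. The absolute depth is unknown, so detection limits of genes with an FPKM under 1, such as Cabp4 before P2, cannot be given.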
